A study of Mus musculus with 2 samples.

Results

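Interferon-high T cells are a small fraction of the CD3-positive cells that came through a bone marrow sort for natural killer progenitors (NKP). They were chosen by their transcripts: at least 2 unique molecular identifiers (UMIs, each standing for 1 captured RNA molecule) over Cd3d, Cd3e and Cd3g, none of the B cell gene Cd79a, and at least 4 UMIs summed over Isg15, Ifit1, Rsad2, Usp18 and Cxcl10. The rule took 649 of the 20322 cells kept in the series, 272 from Irf4-/- mice and 377 from wild-type (WT) mice. They were set against the other 17118 CD3-positive, Cd79a-negative cells of the same 2 libraries, 6376 from Irf4-/- and 10742 from WT. The study profiled bone marrow cells of Irf4-/- mice and of WT C57BL/6 mice, sorted as lineage-negative, Sca-1-negative, c-kit-negative, CD122-positive, NK1.1-negative and Ncr1-negative, with 1 10x Genomics 3' library for each genotype. The age, sex and number of the mice, the strain background of the Irf4-/- mice and the part of Irf4 that was deleted are not given in the sources used here. Although cells were sorted, the library protocol speaks of nuclei.

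Type I, II and III interferons are secreted proteins that bind surface receptors and act through Janus kinases and STAT transcription factors. IRF9 acts in a complex with STAT proteins that binds a repeated GAAA element in promoters. The genes switched on in this way block viral replication at several steps, mark foreign RNA, raise antigen presentation by MHC class I and restrain the signal itself. IRF4, the factor missing in the mutant, belongs to the same family as IRF1, IRF7 and IRF9 and is best known in lymphocytes for its part in activated T cells and plasma cells.

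Each genotype was 1 library, so no difference between genotypes could be tested, and p-values are not given. Levels are counts per 1000000 UMIs of the pooled cells (CPM), and the brackets after values are 95% intervals that cover counting error only, not differences between mice. The 20879 deposited barcodes together held 82599767 UMIs in the Irf4-/- library and 95031071 UMIs in the WT library. The interferon-high cells held 3284332 UMIs in Irf4-/- and 3486704 UMIs in WT, with medians of 10598.5 and 8086 UMIs per cell, against 9877.5 and 7222.5 UMIs in the other CD3-positive cells. The 2 libraries shared 25 barcodes among kept cells, and 2 Irf4-/- interferon-high cells and 0 WT ones carried such a barcode. Irf4 itself gave 7 UMIs (2.13 CPM, 0.857 to 4.39) in Irf4-/- interferon-high cells and 14 UMIs (4.02 CPM, 2.20 to 6.74) in WT ones. In the other CD3-positive cells Irf4 gave 185 UMIs (2.68 CPM) in Irf4-/- and 81 UMIs (0.966 CPM) in WT, so the transcript count does not separate the libraries by their labels. Whether the counted 3' end lies outside the deleted part is not known here, and the count then checks nothing.

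The label of these cells was set against their markers. After every cell was thinned to 2000 UMIs, Trbc2, a constant gene of the T cell receptor beta chain that the rule did not use, was seen in 89.0% of the interferon-high cells in Irf4-/- and in 86.4% in WT, against 87.7% and 87.4% of the other CD3-positive cells and 1.34% and 3.21% of B cells. Cd3d, which the rule used, was seen in 82.7% of the interferon-high cells in Irf4-/- and in 85.6% in WT. Slfn5, an interferon-induced Schlafen gene that the rule did not use, had a UMI in 58.8% of Irf4-/- and 67.9% of WT interferon-high cells, against 22.1% and 17.4% of the others. Ncr1, a natural killer receptor that the sort selected against, had a UMI in 0.368% of the Irf4-/- and 0.265% of the WT interferon-high cells. Klrb1c, the gene of NK1.1, against which the sort also selected, had a UMI in 12.5% and 4.51%, against 12.2% and 5.37% of the others. After thinning the Klrb1c shares were 1.10% and 1.06%, against 4.02% and 1.97%. The cells therefore carried T cell and interferon transcripts, which the rule in part fixed. No cytokine treatment or infection is named in the labels, and what the cells met was not measured.

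Promoters of the selecting genes, all but Usp18, are shown because these genes define the cells. The sequences below are the 250 bases before the RefSeq transcription start, 5' to 3' on the gene's strand, in the build GRCm38.p6. Capitals mark GAAANNGAAA, a repeat of the element that the IRF9 complex is known to bind, or its reverse complement TTTCNNTTTC. The windows are chr4:156200819-156201068 on the minus strand for Isg15, chr19:34640639-34640888 on the plus strand for Ifit1, chr12:26456453-26456702 on the minus strand for Rsad2 and chr5:92348890-92349139 on the minus strand for Cxcl10.
Isg15: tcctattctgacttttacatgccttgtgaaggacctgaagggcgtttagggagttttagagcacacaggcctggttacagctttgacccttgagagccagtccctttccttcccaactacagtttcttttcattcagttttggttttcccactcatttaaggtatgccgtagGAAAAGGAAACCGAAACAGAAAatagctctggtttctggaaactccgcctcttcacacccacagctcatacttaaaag
Ifit1: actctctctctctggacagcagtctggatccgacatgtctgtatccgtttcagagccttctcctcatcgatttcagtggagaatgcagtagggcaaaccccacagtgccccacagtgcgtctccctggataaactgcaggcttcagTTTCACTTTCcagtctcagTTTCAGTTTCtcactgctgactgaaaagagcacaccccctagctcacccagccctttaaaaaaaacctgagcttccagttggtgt
Rsad2: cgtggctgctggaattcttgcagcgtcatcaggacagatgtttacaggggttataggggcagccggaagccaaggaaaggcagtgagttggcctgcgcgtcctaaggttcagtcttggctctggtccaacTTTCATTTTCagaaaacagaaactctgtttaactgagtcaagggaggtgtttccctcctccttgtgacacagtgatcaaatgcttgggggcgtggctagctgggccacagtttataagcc
Cxcl10: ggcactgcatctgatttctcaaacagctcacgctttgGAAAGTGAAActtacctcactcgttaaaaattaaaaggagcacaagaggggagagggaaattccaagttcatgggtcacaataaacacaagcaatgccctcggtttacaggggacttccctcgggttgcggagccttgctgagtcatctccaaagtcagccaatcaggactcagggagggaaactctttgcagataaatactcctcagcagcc

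Isg15, which encodes a ubiquitin-like protein, held 3 overlapping matches, whose first bases lay at positions -78, -72 and -66 from the start. Ifit1, whose product binds foreign RNA caps, held matches at -104 and -85. Rsad2, which encodes the antiviral enzyme viperin, held 1 at -120, and Cxcl10, which encodes a chemokine that draws CXCR3-bearing T cells, held 1 at -213. Among all 32851 promoters of the table, 978 held the motif on either strand (2.98%), and by gene it was 936 of 27025 (3.46%). Of the 123 genes on the list of interferon genes outside the selection, 94 matched the table by symbol and 36 of those held the motif (38.3%). By family the motif was found in 9 of 10 guanylate-binding and immunity-related GTPase genes, 4 of 6 oligoadenylate synthetase genes and 4 of 5 Ifit genes, but in 0 of 6 genes of RNA and DNA sensors. Of MHC class I pathway genes 3 of 15 held it, and of naive T cell genes 0 of 8. A match describes these letters in this window and is no evidence of binding, and its absence says nothing about a factor.

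The 5 selecting genes are given first as a description, since their sum chose the cells. Isg15 stood at 470 CPM (447 to 494) in Irf4-/- interferon-high cells and 550 CPM (526 to 576) in WT ones, against 14.2 and 11.3 CPM in the other CD3-positive cells. Ifit1 stood at 212 CPM in Irf4-/- and 368 CPM in WT, against 5.34 and 5.43 CPM in the others. Usp18, which removes ISG15 from proteins and dampens the type I receptor, was near equal between genotypes in interferon-high cells. It stood there at 147 CPM in Irf4-/- and 149 CPM in WT. In the others Usp18 stood at 15.5 CPM in Irf4-/- and 6.64 CPM in WT, a log2 ratio of 1.23 (1.08 to 1.38). Among interferon-high cells Cxcl10 stood at 115 CPM in Irf4-/- and 149 CPM in WT, and Rsad2 at 87.1 and 139 CPM. Isg15 was thus the most abundant of the 5 in the interferon-high cells of both libraries.

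The selecting genes were unevenly spread over the cells. Isg15 had a UMI in 93.4% of the Irf4-/- and 94.7% of the WT interferon-high cells, Ifit1 in 72.1% and 82.2%, and Usp18 in 70.6% and 63.4%. Rsad2 was seen in 40.4% of Irf4-/- and 53.1% of WT cells. Cxcl10 was seen in only 21.7% of Irf4-/- and 23.9% of WT cells, so its CPM came from fewer cells. All 5 genes were seen together in 26 Irf4-/- cells and 46 WT cells, and Isg15 without any of the other 4 in 22 Irf4-/- and 18 WT cells. The sum over the 5 genes had a median of 8 UMIs in Irf4-/- and 9 in WT, and its highest values were 74 and 92.

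The 4-UMI limit did not fall in a gap. In Irf4-/-, 146 CD3-positive cells had a sum of 3, just outside, against 53 cells with 4 and 43 with 5, just inside; in WT these counts were 125, 51 and 42. The UMIs of the 117 interferon genes outside the selection, per 10000 UMIs of each cell, had a median of 130.5 at a sum of 3 and 154.2 at 4 to 5 in Irf4-/-, and of 139.5 and 164.3 in WT. At a sum of 0 the median was 111.0 in Irf4-/- and 98.2 in WT, and at 20 or more it was 310.6 and 295.5. The level therefore climbed in steps with the selecting sum, with no jump at the limit. Over all interferon-high cells the median was 195 in Irf4-/- and 223 in WT, against 113 and 99.5 in the other CD3-positive cells. Of the interferon-high cells, 177 Irf4-/- cells (65.1%) and 296 WT cells (78.5%) lay above the 95th percentile of the others in their library, while 27 (9.93%) and 12 (3.18%) lay at or under the others' median.

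**Figure D1:**
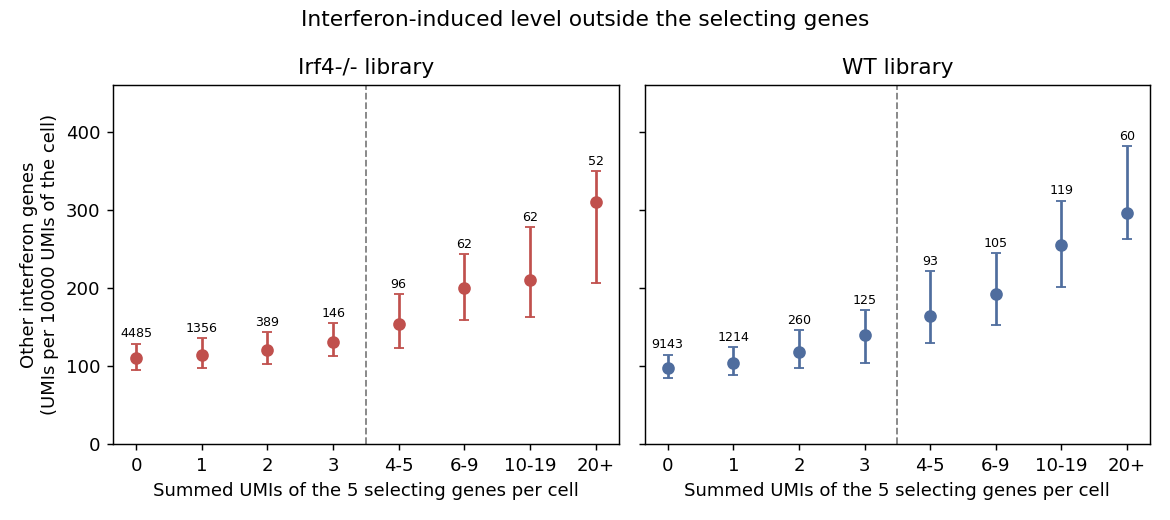
Level of interferon genes outside the selection by the UMI sum of Isg15, Ifit1, Rsad2, Usp18 and Cxcl10 in CD3-positive cells. The x axis gives bins of the sum and the y axis the UMIs of those genes per 10000 UMIs of a cell; points are medians, bars quartiles, printed numbers the cells in each bin and the dashed line the limit of 4 UMIs, with Irf4-/- left of WT, and the medians go from 111.0 (Irf4-/-) and 98.2 (WT) at a sum of 0 to 310.6 and 295.5 at 20 or more.

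Part of this level was not particular to the interferon-high cells. Ms4a4b, Ly6c2, Ly6e, Shisa5, Epsti1 and Ms4a6b, abundant in all these T cells, held 54.6% of the list's UMIs in the other Irf4-/- cells and 53.6% in the other WT cells. Their levels in interferon-high cells were at most 1.41-fold those in the others. The cell-by-cell medians therefore weigh these 6 genes heavily.

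Across the genes with a mean of at least 50 CPM over interferon-high and other cells, 47 of 2268 (2.07%) were at least 2-fold higher in the interferon-high cells of Irf4-/- and 70 of 2259 (3.1%) in those of WT, and 0 (0%) were 2-fold lower in either library. The higher genes included 4 haemoglobin genes in each library, whose UMIs lay nearly all in 1 Irf4-/- and 5 WT interferon-high cells. Of the 123 listed interferon genes outside the selection, 117 were in the files, 115 had a UMI in Irf4-/- and 117 in WT, and 56 and 63 reached the minimum level. Of these, 35 in Irf4-/- and 50 in WT were at least 2-fold higher. The selecting rule fixed this contrast, so the counts describe how far the selected cells go beyond the selecting genes and are not read further. The median log2 ratio of interferon-high over other cells was 1.35 (range 0.10 to 2.76) in Irf4-/- and 1.78 (0.09 to 5.31) in WT, beside 0.00 and -0.01 over all genes at that level. With every listed gene that gave a ratio, whatever its level, the median was 1.51 over 113 genes in Irf4-/- and 1.84 over 112 genes in WT, and 112 genes were above 0 in each library.

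Receptors and kinases at the head of the pathway showed little of this. Ifnar2, a type I receptor chain, differed by log2 ratios of 0.02 in Irf4-/- and 0.04 in WT, and Ifnar1, the other chain, by -0.26 and -0.13. Ifngr1, a chain of the interferon-gamma receptor, was lower by log2 ratios of -0.32 in both, and Jak1 by -0.16 in both. Of 20 listed receptor, kinase, transcription factor and feedback genes, 11 reached the minimum level in each library, 8 of them above 0, and 2 in Irf4-/- and 4 in WT were at least 2-fold higher. Irf7, which amplifies type I interferon production in infected cells, was at 123 CPM in Irf4-/- and 156 CPM in WT interferon-high cells, against 24.7 and 21.0 CPM in the others (log2 ratios of 2.32 and 2.89). Irf9 differed by 0.91 and 1.16, the feedback inhibitor Socs1 by 0.65 and 1.10, and Irf1 by 0.52 and 0.87.

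RNA and DNA sensors stood higher as well. Zbp1, which senses left-handed nucleic acids, was at 238 CPM in Irf4-/- and 247 CPM in WT interferon-high cells, against 47.6 and 32.6 CPM in the others. Ifih1 (MDA5) had log2 ratios of 2.54 and 2.93, Dhx58 (LGP2) 2.73 and 2.86, Eif2ak2 (the RNA-activated kinase PKR) 2.10 and 2.44 and Ddx58 (RIG-I) 1.44 and 1.84. Cgas and Aim2, which bind DNA, differed less, with log2 ratios of 0.56 and 0.86 for Cgas and 0.17 and 0.41 for Aim2.

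Direct antiviral effectors had some of the widest ratios. Isg20, an exonuclease that degrades RNA, was at 67.9 CPM in Irf4-/- and 119 CPM in WT interferon-high cells, against 3.10 and 4.28 CPM in the others, log2 ratios of 4.45 and 4.80. Cmpk2, a mitochondrial nucleotide kinase next to Rsad2 in the genome, was at 42.6 and 48.5 CPM, against 2.98 and 2.86 CPM. Some members of the oligoadenylate synthetase family make the messenger that activates RNase L. In this family Oas3 was the highest at 65.8 CPM in Irf4-/- and 71.4 CPM in WT, against 11.5 and 8.95 CPM. Oasl2 stood at 47.2 and 57.6 CPM against 4.30 and 2.72 CPM, and Oasl1 at 35.3 and 32.7 CPM with log2 ratios of 3.43 and 3.94. Bst2 (tetherin), which holds budding virus at the membrane, was at 329 and 404 CPM, against 101 and 85.6 CPM. Rtp4 differed by log2 ratios of 2.39 and 2.85, and Xaf1 by 2.04 and 2.45. Each RNA molecule gives 1 UMI at its 3' end whatever its length, so CPM of different genes were set side by side without a length correction.

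The GTPases that attack membranes around pathogens differed by a median log2 ratio of 1.70 in Irf4-/- and 1.95 in WT over 17 genes. Gbp4 was at 145 CPM in Irf4-/- and 193 CPM in WT interferon-high cells, against 60.2 and 51.9 CPM in the others, and Igtp at 127 and 157 CPM, against 32.4 and 27.1 CPM. Of the Schlafen genes, Slfn5 was at 197 and 279 CPM, against 29.1 and 29.6 CPM, while Slfn2, abundant in all these cells, differed by only 0.65 and 0.76 on the log2 scale. Parp9 and its partner Dtx3l differed by 1.88 and 2.29 and by 1.35 and 1.53. Herc6, the mouse ligase that attaches ISG15, differed by 1.72 and 2.06. Ly6a, which encodes Sca-1 and against which the sort selected, was at 25.3 and 21.8 CPM, against 4.23 and 2.23 CPM.

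The MHC class I pathway was high in all CD3-positive cells and showed small differences. All 17 listed genes had a UMI and 16 reached the minimum level in each library, 0 of them 2-fold apart. Of all genes at that level, 2.07% in Irf4-/- and 3.1% in WT were 2-fold higher and 0% were 2-fold lower. The median log2 ratios of the listed genes were 0.34 in Irf4-/- and 0.48 in WT. H2-K1 had log2 ratios of 0.09 and 0.22, the immunoproteasome subunit Psmb10 0.52 and 0.70, and H2-T23 (Qa-1) 0.60 and 0.75. Genes at the minimum level in both libraries were also ranked by the smaller ratio, without the selecting genes and without genes of haemoglobin, immunoglobulins, receptor segments, ribosomal proteins and mitochondria and predicted genes. The rule chose the cells by interferon genes, so the ranking describes that selection and is no support for it. The interferon list outside the selection held 56 of the 2268 genes at the minimum level in Irf4-/- and 63 of 2259 in WT. All 15 with the highest ratios in that ranking were on the interferon list. Among the 10 with the lowest, S1pr1, the receptor by which lymphocytes leave tissues, was at 88.6 CPM in Irf4-/- and 110 CPM in WT interferon-high cells, against 130 and 168 CPM in the others (log2 ratios of -0.55 and -0.61). Cd5, an inhibitory co-receptor, had log2 ratios of -0.56 and -0.40.

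**Figure D2:**
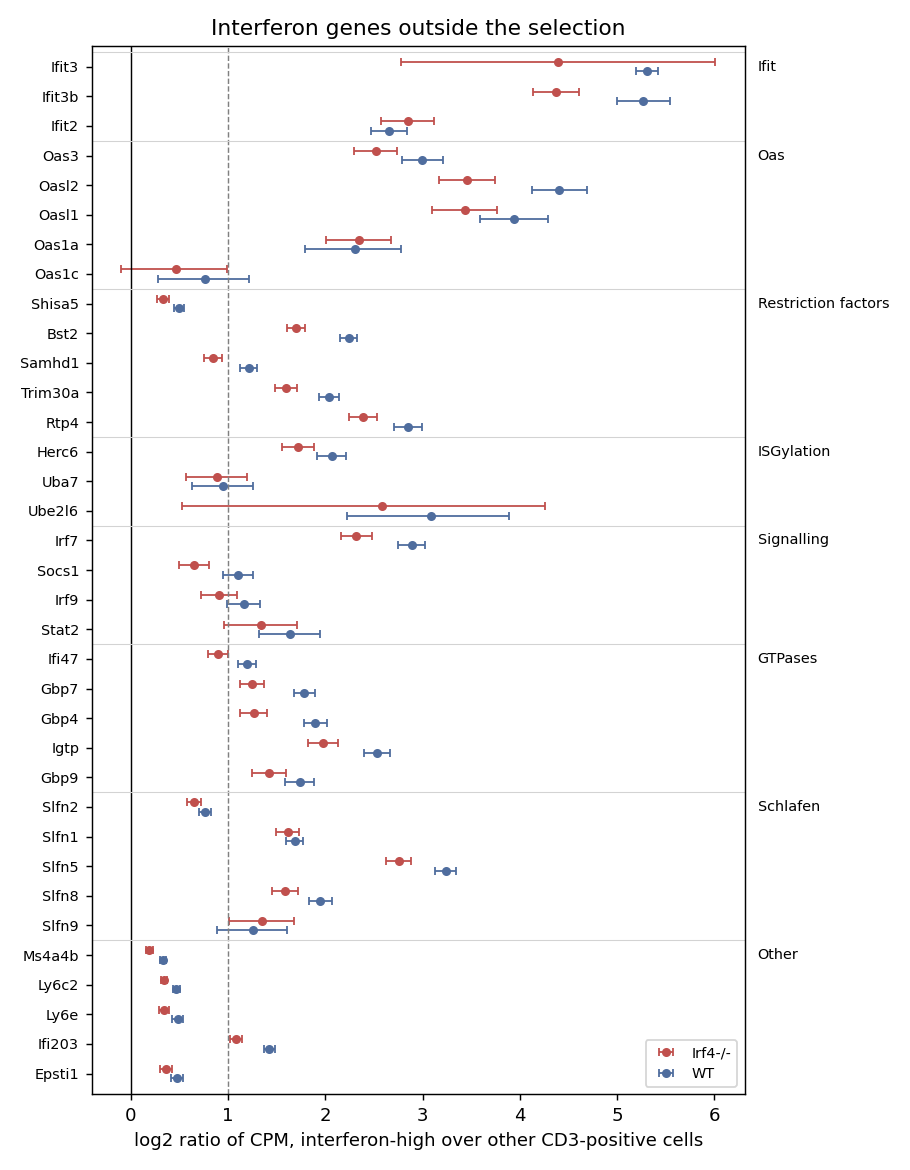
Log2 ratio of CPM in interferon-high over other CD3-positive cells for 35 genes grouped by role, in Irf4-/- and WT. The x axis is the log2 ratio, points are ratios, bars are 95% intervals for counting error and the dashed line marks 2-fold; Ifit3b (4.37 in Irf4-/-, 5.27 in WT) lies far to the right and Ms4a4b (0.19 and 0.33) near 0.

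Genes for the interferons themselves were looked for in the same cells. Ifna1, Ifna2, Ifna4, Ifnb1, Ifne, Ifnk, Ifnl2 and Ifnl3 gave 0 UMIs in interferon-high cells of both libraries, which allows up to 0.913 CPM in Irf4-/- and 0.860 CPM in WT for each. Ifng, the type II interferon, had a UMI in 11.0% of Irf4-/- and 8.22% of WT interferon-high cells, against 5.87% and 2.63% of the others. After thinning to 2000 UMIs the shares were 3.68% (1.78 to 6.66) and 3.46% (1.85 to 5.84), against 1.66% (1.36 to 2.01) and 1.18% (0.989 to 1.41), and 0.206% and 0.494% of B cells. The 3 cells with most Ifng held 53.8% of its 65 UMIs in Irf4-/- and 43.2% of its 88 UMIs in WT.

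The share of CD3-positive cells that were interferon-high was 4.09% (3.63 to 4.60) in Irf4-/- and 3.39% (3.06 to 3.74) in WT, a log2 ratio of 0.27 (0.041 to 0.50). The Irf4-/- cells had more UMIs per cell, and the rule counts absolute UMIs. When each cell was thinned to 4000 UMIs, which left out 74 Irf4-/- and 566 WT cells, the share at 4 or more UMIs was 1.95% (1.63 to 2.31) in Irf4-/- and 2.18% (1.91 to 2.48) in WT. This selection is also the stricter of the 2, the order of the genotypes is the other way round in it, and its intervals overlap. At least 1 UMI of the selecting genes was seen in 32.5% of Irf4-/- and 17.8% of WT CD3-positive cells before thinning and in 9.92% and 7.35% after thinning to 2000 UMIs.

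Within the interferon-high cells, the interferon genes outside the selection were on balance slightly lower in Irf4-/- than in WT. Of the 117 genes in the files 116 had a UMI and 70 reached a mean of 50 CPM. Of these 0 were 2-fold higher, beside 10 of 2276 genes overall (0.439%), and 2 were 2-fold lower, beside 7 of 2276 (0.308%). The 2 were Ifit3 and Ifit1bl1, which reached the minimum level through WT alone, and 4 of the 7 were haemoglobin genes. Below 0 lay 60 of the 70, with a median log2 ratio of Irf4-/- over WT of -0.17, beside 0.03 over all genes. In the other CD3-positive cells 32 of the genes reached the minimum level and 27 lay above 0. Their median was 0.14, beside 0.03 over all 2247 genes at that level. Of those 2247 genes 8 (0.356%) were 2-fold higher and 5 (0.223%) 2-fold lower. The shares of all genes above and below 0 are not given here, so the counts by sign have no such share beside them. The median in interferon-high cells shrank to -0.070 when the cells were chosen after thinning to 4000 UMIs, a stricter selection of fewer cells.

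Single genes followed this in both populations. Gbp4 had a log2 ratio of Irf4-/- over WT of -0.42 (-0.59 to -0.25) in interferon-high cells and 0.21 (0.15 to 0.27) in the others. Bst2 had -0.30 and 0.24, Irf7 -0.34 and 0.23, and Igtp -0.30 and 0.26. The difference between the populations was not tested, and the rule split the cells by genes of the same pathway. Other genes had 1 direction in both. Ifi27l2a, an interferon-induced gene, was higher in Irf4-/- at 764 CPM, against 543 CPM in WT, and likewise in the other cells (log2 ratios of 0.49 and 0.85). Oas1a was also higher, at 28.6 CPM in Irf4-/- and 12.3 CPM in WT interferon-high cells (1.21, 0.68 to 1.77), with 1.16 in the others. Slfn1 was lower, at 213 CPM in Irf4-/- and 380 CPM in WT, with log2 ratios of -0.83 in interferon-high cells and -0.76 in the others.

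**Figure D3:**
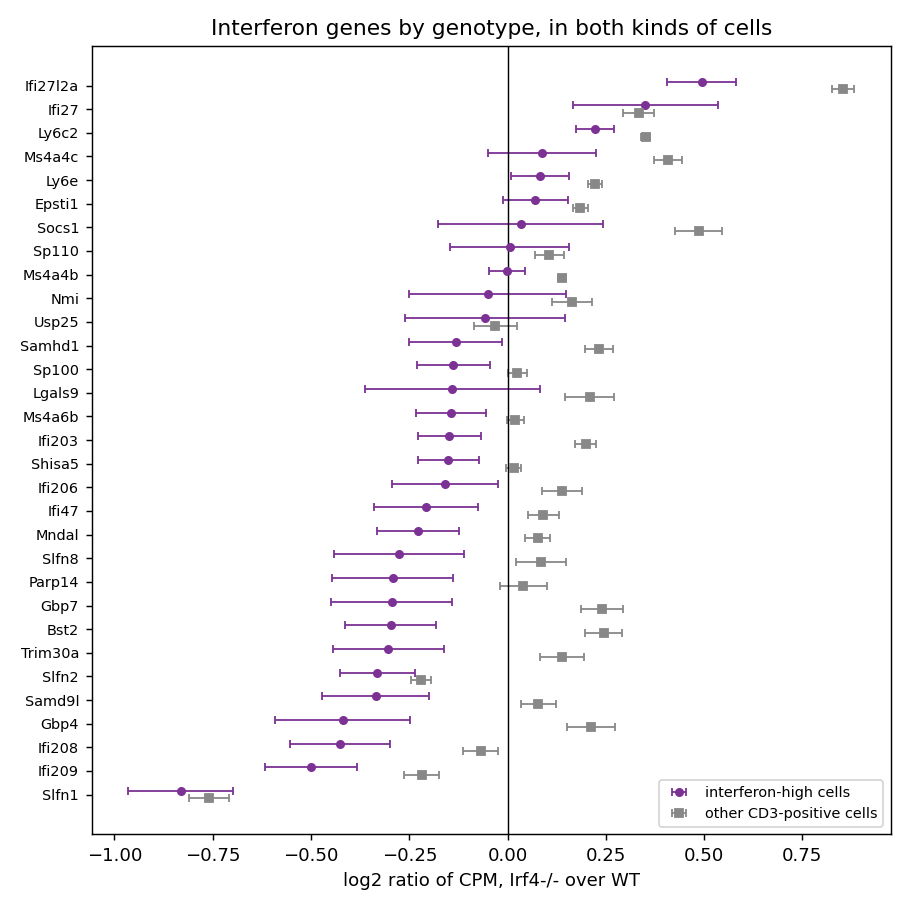
Log2 ratio of CPM, Irf4-/- over WT, for 31 interferon genes with at least 50 CPM on average in both populations, in interferon-high cells and in other CD3-positive cells. The x axis is the log2 ratio and bars are 95% intervals for counting error; 23 genes lie below 0 in the interferon-high cells and 26 above 0 in the others.

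Among the interferon genes, those of the Ifit locus on chromosome 19 held the widest difference between the libraries. The strain background of the Irf4-/- mice is not given, so genotype and background cannot be told apart here. Ifit3, whose product works in a complex with IFIT1 (build GRCm38, 34583531 to 34588731 on the plus strand), gave 8 UMIs in 8 Irf4-/- interferon-high cells and 1592 UMIs in 301 WT cells. This is 2.44 CPM (1.05 to 4.80) in Irf4-/- and 457 CPM (434 to 480) in WT. Ifit1bl1 (34592891 to 34601956 on the minus strand) gave 0 UMIs in Irf4-/- and 361 UMIs in 201 WT cells, at least 113-fold lower against a floor of 3 UMIs in the Irf4-/- cells together. Ifit3b (34607970 to 34613401 on the plus strand), a near-identical copy of Ifit3, gave 292 UMIs in both, or 88.9 CPM in Irf4-/- and 83.7 CPM in WT. Ifit2 lay between, with 151 UMIs in Irf4-/- and 311 in WT (46.0 and 89.2 CPM). Ifit1bl2 gave 2 UMIs in Irf4-/- and 4 in WT.

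The low counts were not limited to the interferon-high cells. In the other CD3-positive cells Ifit3 gave 8 UMIs in Irf4-/- and 966 in WT, Ifit1bl1 0 and 2294, and Ifit3b 297 and 182. In Irf4-/- the share of cells with an Ifit3 UMI stayed between 0% and 5.77% over all bins of the selecting sum, and in WT it went from 5.24% at a sum of 0 to 96.7% at 20 or more. Reads that match copies equally well can be dropped by the authors' counting, so the counts of Ifit3, Ifit3b, Ifit1bl1 and Ifit1bl2 are uncertain gene by gene.

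The promoter windows of Ifit3 and Ifit3b are printed because the copies behaved so differently in Irf4-/- and share their upstream sequence. Both are 250 bases on the plus strand in GRCm38.p6, chr19:34583279-34583528 for Ifit3 and chr19:34607707-34607956 for Ifit3b, with capitals as before.
Ifit3: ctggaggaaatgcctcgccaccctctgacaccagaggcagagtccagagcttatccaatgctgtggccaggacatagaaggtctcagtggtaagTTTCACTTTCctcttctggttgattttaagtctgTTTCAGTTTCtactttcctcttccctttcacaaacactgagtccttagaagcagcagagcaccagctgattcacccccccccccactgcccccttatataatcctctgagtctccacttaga
Ifit3b: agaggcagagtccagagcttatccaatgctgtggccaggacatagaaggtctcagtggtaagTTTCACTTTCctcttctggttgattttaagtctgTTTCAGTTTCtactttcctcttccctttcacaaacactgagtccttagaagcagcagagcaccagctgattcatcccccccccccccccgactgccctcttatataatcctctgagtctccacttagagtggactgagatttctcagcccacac

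Laid on each other without gaps at a shift of 32 bases, 188 of 218 bases of the 2 windows were identical (86.2%). Both held the motif 2 times, at -156 and -122 in Ifit3 and at -188 and -154 in Ifit3b. These letters are the reference genome's and not read from either library.

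**Figure D4:**
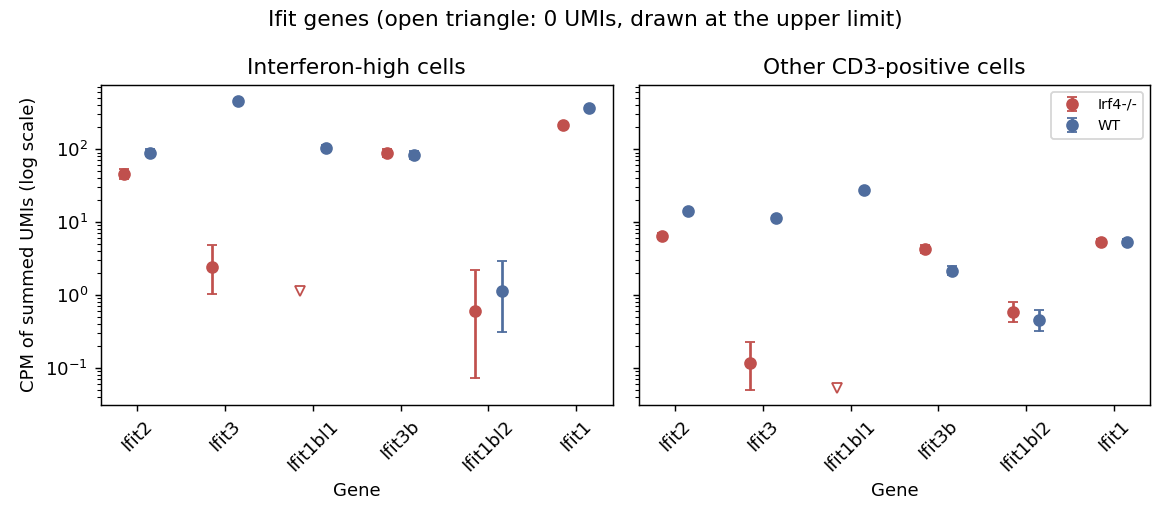
Levels of the genes of the Ifit locus in interferon-high cells and other CD3-positive cells, Irf4-/- left of WT. The y axis is CPM on a log scale, an open triangle stands for 0 UMIs at its upper limit, and bars are 95% intervals for counting error; Ifit3 stands at 2.44 CPM in Irf4-/- and 457 CPM in WT interferon-high cells, whereas Ifit3b stands at 88.9 and 83.7 CPM.

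The interferon-high cells were not of 1 T cell class. After thinning to 2000 UMIs, Cd8b1, the CD8 beta chain, was seen in 23.2% (18.3 to 28.6) of Irf4-/- and 42.8% (37.8 to 48.0) of WT interferon-high cells, against 24.0% and 44.5% of the other CD3-positive cells and 0.206% and 0.123% of B cells. Trdc, the T cell receptor delta constant gene, without Cd8b1 or Cd4 was seen in 12.1% and 10.6%, against 10.8% and 10.3%. Cd4 was seen after thinning in 0 of 272 Irf4-/- and 0 of 376 WT interferon-high cells, and before thinning in 0% and 0.265%. The 0 of 272 allows a share of cells with a UMI of up to 1.35%. Before thinning, interferon-high cells made up 3.85% of Irf4-/- and 3.36% of WT cells with a Cd8b1 UMI, 4.26% and 3.93% of those with Trdc only, and 4.30% and 3.27% of those with neither. The class shares differed more between libraries than with the interferon level, with log2 ratios of the thinned Cd8b1 share of -0.05 for interferon-high over other cells in both libraries. In WT interferon-high cells, interferon genes outside the selection stood at 197 per 10000 UMIs with Cd8b1, 268 with Trdc only and 252 with neither. In Irf4-/- interferon-high cells they stood at 189, 197 and 204. In the other CD3-positive cells they stood at 98.1, 115 and 105 in WT and 107, 123 and 118 in Irf4-/-. The classes were not matched for depth here. The rule counts absolute UMIs, so a cell with fewer UMIs needs a higher share of selecting UMIs to enter. The part of depth in these class values was not tested.

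Genes that differ between the 2 libraries in all T cells did so here as well. Klrc2, an NKG2 receptor chain, was at 102 CPM in Irf4-/- and 30.4 CPM in WT interferon-high cells, and Klre1, another lectin receptor, at 140 and 56.2 CPM. Cd8b1 was at 203 CPM in Irf4-/- and 447 CPM in WT, and Il7r, the interleukin-7 receptor chain, at 240 and 424 CPM. Their log2 ratios of Irf4-/- over WT were 1.74, 1.31, -1.14 and -0.82, against 1.37, 1.48, -1.06 and -0.87 in the other cells. Gzmk gave 0 UMIs in Irf4-/- and 39 UMIs in WT interferon-high cells, and 1 and 650 UMIs in the others.

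Of 11 listed genes of naive T cells, 8 in Irf4-/- and 9 in WT reached the minimum level. Among them 0 were 2-fold lower, beside 0 of 2268 genes in Irf4-/- and 0 of 2259 in WT. This count therefore does not set the naive T cell genes apart. Of the naive T cell genes at that level, 6 in Irf4-/- and 8 in WT lay below 0, with median log2 ratios of -0.12 and -0.36. Lef1, a transcription factor of naive T cells, had log2 ratios of -0.13 in Irf4-/- and -0.41 in WT. Dapl1, a marker of naive-like CD8 T cells, was at 88.6 CPM in Irf4-/- interferon-high cells against 75.2 CPM in the others. In WT it was at 116 CPM against 155 CPM. The 3 Irf4-/- interferon-high cells with most Dapl1 held 85 of its 291 UMIs. After thinning, Dapl1 was seen in 7.72% of Irf4-/- interferon-high cells against 8.60% of the others, and in WT in 9.31% against 16.5%. Cd69, a membrane protein that interferons induce and that retains lymphocytes by binding the S1P receptor, was at 287 CPM in Irf4-/- and 314 CPM in WT, against 174 and 158 CPM.

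A few cells carried granzyme transcripts. Gzma had a UMI in 9.93% of Irf4-/- and 16.2% of WT interferon-high cells, against 2.16% and 2.33% of the others; after thinning the shares were 3.31% and 7.18%, against 0.440% and 0.709%, and 0 of 973 Irf4-/- B cells. Gzmb had a UMI in 10.7% and 7.16%, against 2.51% and 1.83%. The 3 cells with most Gzmb held 35 of its 70 UMIs in Irf4-/- and 46 of its 103 UMIs in WT. The list of 18 memory and effector genes as a whole had median log2 ratios of 0.04 in Irf4-/- and 0.07 in WT among the genes at the minimum level, 11 and 10 of the 18.

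Cycling cells made up similar shares of interferon-high and other cells. Cells with at least 20 UMIs over 18 cell cycle genes were 17 (6.25%) in Irf4-/- and 10 (2.65%) in WT, against 6.45% and 2.33% of the others. These few cells held 2460 of 3074 cycle UMIs in Irf4-/- and 1150 of 1789 in WT. Mki67, a proliferation marker, was at 158 CPM in Irf4-/- and 75.4 CPM in WT interferon-high cells, a log2 ratio of 1.06. Of the cycling interferon-high cells, 14 of 17 in Irf4-/- and 7 of 10 in WT lay in the top 5% of UMIs of their library, and the ratio was -1.77 over the cells left without those.

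Cxcl10 marked a part of the interferon-high cells, and the comparison by Cxcl10 was chosen after the values were seen. With the cells that held at least 20 haemoglobin UMIs left out, 59 Irf4-/- and 90 WT cells had a Cxcl10 UMI and 212 and 282 did not. Cxcl10 itself counted towards the selection, so a cell without it had to reach the limit on the other 4 genes. The sum over those 4 genes had a median of 16 UMIs in Irf4-/- and 14 in WT cells with Cxcl10, against 7 and 7 without. The cells with Cxcl10 thus also had the higher sum of the other selecting genes. How much of the differences by Cxcl10 follows that sum was not tested. The median depths were 10772 UMIs in Irf4-/- and 7830.5 in WT cells with Cxcl10, against 10519.5 and 8076.5 without. The level of interferon genes outside the selection had a median of 247 per 10000 UMIs in Irf4-/- and 270 in WT with Cxcl10, against 189 and 211 without.

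The genes with the highest ratios with Cxcl10 were in part listed interferon genes and in part others. Of the listed ones, Gbp5 had log2 ratios of 1.31 in Irf4-/- and 1.26 in WT, Gbp4 1.33 and 1.08, and Ifit2 1.91 and 1.04. Rgs1, a regulator of chemokine receptor signalling, was at 139 CPM in Irf4-/- and 150 CPM in WT cells with Cxcl10, against 39.0 and 32.8 CPM in those without. Nfkbia, the inhibitor of NF-kappaB, had log2 ratios of 1.36 and 1.66, Icam1, an adhesion molecule, 1.55 and 1.35, Pim1, a kinase induced by cytokines, 1.26 and 1.13, and Xcl1, a chemokine, 1.10 and 1.70. Irf1 had 0.90 and 1.08, Socs1 1.06 and 1.17 and Cd69 0.86 and 0.92. Ifng had a UMI in 10 of 59 Irf4-/- and 18 of 90 WT cells with Cxcl10, against 20 of 212 and 13 of 282 of those without. Lower with Cxcl10 were S1pr1, with log2 ratios of -1.05 and -0.69, Id3, an inhibitor of E proteins, with -0.68 and -1.20, and Cd8b1, with -1.43 and -0.71.

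**Figure D5:**
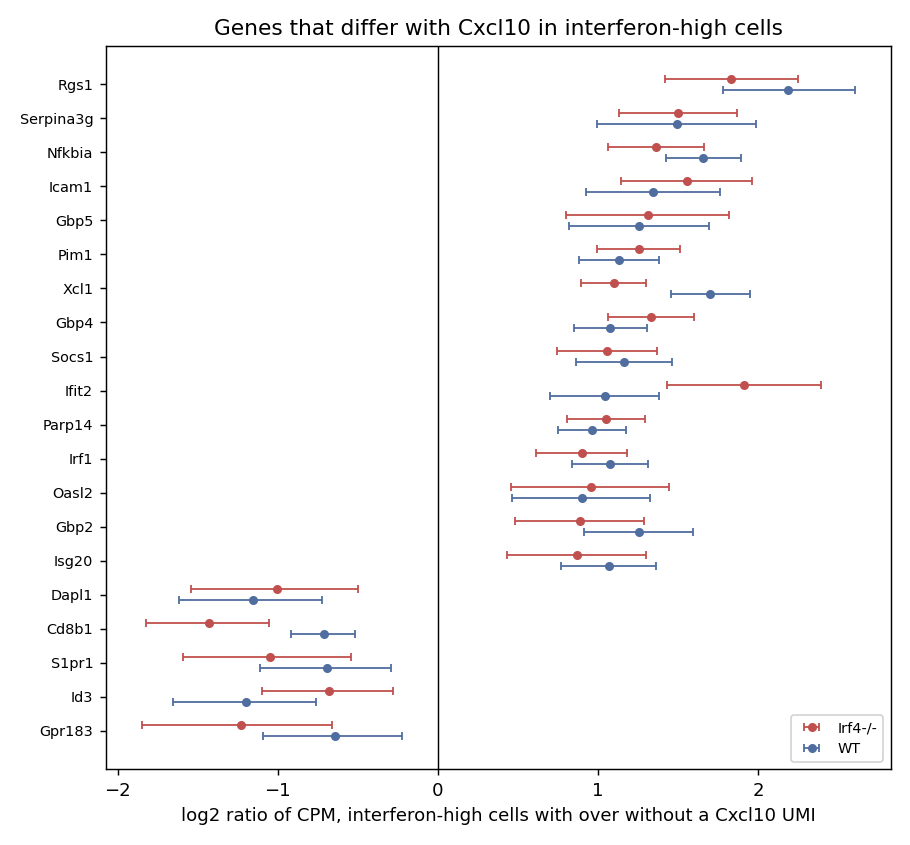
Log2 ratio of CPM in interferon-high cells with a Cxcl10 UMI over those without, in Irf4-/- and WT. The x axis is the log2 ratio and bars are 95% intervals for counting error; Rgs1 lies at 1.83 in Irf4-/- and 2.19 in WT, and S1pr1 at -1.05 and -0.69.

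Transcripts of other cell types were counted in the interferon-high cells. The summed level of 9 B cell genes was 210 CPM in Irf4-/- and 217 CPM in WT, against 196 and 236 CPM in the other CD3-positive cells, with Cd79a at 0 by the rule. The 10 neutrophil and monocyte genes stood at 91.6 and 84.6 CPM, against 104 and 101 CPM, with Csf1r, Mpo and Ltf at 0 in both. The 7 natural killer genes stood at 232 and 109 CPM, against 239 and 134 CPM. The plasmacytoid dendritic cell list stood at 35.9 CPM in Irf4-/- and 62.8 CPM in WT, against 23.8 and 18.3 CPM. Its Siglech and Klk1 were at 0 in Irf4-/-, and in WT 1 cell held 88 of the list's 219 UMIs. Irf8, which is on that list, gave 97 of its 118 UMIs in Irf4-/-, over 51 cells. In WT Irf8 gave 137 of the 219, over 67 cells. The dendritic cell list stood at 6.70 and 14.9 CPM, against 5.82 and 6.51 CPM. Of its 9 genes 4 had a UMI in Irf4-/- and 8 in WT, with Flt3 at 0 in both. In WT 1 cell held 36 of the dendritic list's 52 UMIs. Haemoglobin was concentrated in 1 Irf4-/- cell and 5 WT cells, which held 4691 of 4713 and 20990 of 21055 of its UMIs. Without such cells it stood at 6.77 CPM in Irf4-/- and 18.9 CPM in WT, against 7.43 and 18.6 CPM in the others. The part of these transcripts in the interferon level was not tested.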

How the data were processed

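The data are UMI counts of 2 single-cell libraries, deposited as 10x matrices of whole-number counts that the authors made with Cell Ranger 6.1.1, per the file headers, on the mouse build mm10, per the submitters' processing notes. A gene annotation release was not given in the sources used here. Everything else was computed from these counts. Barcodes with at least 500 genes, at least 1000 UMIs and under 10% mitochondrial UMIs were kept, 20322 of 20879. No doublet caller was run. Interferon-high cells were chosen as described in the opening, and B cells as cells with at least 2 Cd79a UMIs and no CD3 UMI. Counts were summed over cells and scaled to CPM. Intervals are exact (Poisson for counts, Clopper-Pearson for shares, conditional binomial for ratios), at 95%. A ratio against 0 counts used a floor of 3 UMIs over the pooled cells. Genes entered counts past 2-fold at a mean of at least 50 CPM over the groups compared. Thinning drew 2000 or 4000 UMIs from each cell with a fixed seed.

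Groups were the genotypes in the labels, and 1 library for each meant no test. The members and gene lists were chosen with earlier results of these data known. Genes were named by a fixed rule: the selecting genes, CD3 genes, Irf4 and Slfn5, up to 8 genes for each interferon list and 6 for each other list by UMIs in interferon-high cells, and the genes with the highest and lowest ratios (15 and 10 for interferon-high over other cells, 10 and 10 between genotypes). Gzma, Gzmb, Gzmk, Dapl1, Cmpk2, Ly6a, Ifnar1, Ifnar2, H2-T23, Ncr1, Klrb1c and the Cxcl10 comparison were chosen after their values were seen. Gene positions came from GENCODE for GRCm38 through the deposited Ensembl IDs, of which 32158 of 32285 matched, and promoters from RefSeq. Oas1b, Mx1, Mx2, Herc5, Mnda and Cxcl11 were not analysed here, and a few listed genes are not reported here. The ratio and interval code was tested on simulated data. Python 3.11.15, numpy 2.4.6, scipy 1.17.1 and pandas 2.3.3 were used. Alternatives left out or changed the selecting sum, genes, depth, minimum level and doubtful cells.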

Additional observations from a re-analysis of the deposited data

Results flagged for a closer look

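Several genes lay on opposite sides of 0 in the 2 populations when Irf4-/- was set over WT, and each such difference was not tested. Log2 ratios of Irf4-/- over WT in interferon-high cells and in the other CD3-positive cells were -0.23 and 0.33 for Isg15, -0.37 and 1.01 for Cxcl10, -0.30 and 0.24 for Bst2 and -0.34 and 0.23 for Irf7. Among GTPase genes they were -0.28 and 0.26 for Gbp2, -0.42 and 0.21 for Gbp4, -0.34 and 0.24 for Gbp5, -0.30 and 0.24 for Gbp7 and -0.30 and 0.26 for Igtp. The median over the interferon list outside the selection was -0.17 in interferon-high cells and 0.14 in the others. Isg15 and Cxcl10 were used by the rule, which sets them high in the first population and caps them in the second. With cells chosen after thinning to 4000 UMIs, Isg15 was at 0.041, Cxcl10 at 0.036 and the list median at -0.070 in interferon-high cells.

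Other genes lay on opposite sides when interferon-high cells were set over the others, again not tested. Ccl3, a chemokine, had log2 ratios of -1.34 in Irf4-/- and 1.48 in WT, and Ccl4 had -1.20 and 1.44. In WT 3 interferon-high cells held 81.9% of the 72 Ccl3 UMIs and 79.3% of the 275 Ccl4 UMIs. The Irf4-/- interferon-high cells held 14 Ccl3 UMIs in 7 cells, and 3 of the other Irf4-/- cells held 28.6% of their 3191 Ccl4 UMIs. After thinning, Ccl3 was seen in 0.735% of Irf4-/- and 1.06% of WT interferon-high cells, against 1.13% and 1.08% of the others. For Ccl4 these shares were 3.68% and 3.19%, against 4.07% and 3.48%. Dapl1 had log2 ratios of 0.24 in Irf4-/- and -0.42 in WT. In Irf4-/- 3 interferon-high cells held 29.2% of the 291 Dapl1 UMIs. The thinned share of cells with Dapl1 was lower in interferon-high cells in both libraries, 7.72% against 8.60% in Irf4-/- and 9.31% against 16.5% in WT.

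B cells, which enter none of the comparisons, also held cells over the limit of 4 UMIs of the selecting genes. They were 11 of 988 in Irf4-/- (1.11%, 0.557 to 1.98) and 7 of 842 in WT (0.831%, 0.335 to 1.71). A floor of 3 cells stands at 0.304% and 0.356%, and the WT interval reaches below that floor. Their median depths were 4147.5 and 2971 UMIs.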

How the results depend on the processing

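No paired analysis was possible because the labels give no replicate numbers and each genotype is 1 library. The log2 ratio of the interferon-high share, 0.27, reversed to -0.16 after thinning to 4000 UMIs and otherwise ran from 0.13 (selection without Isg15) to 0.48 (at least 3 UMIs). The list median of interferon-high over other cells in Irf4-/-, 1.35, became 1.71 with at least 8 UMIs, 1.87 after thinning and 1.62 without Isg15; in WT, 1.78 became 2.06 with at least 8 UMIs and 2.08 after thinning. That of Irf4-/- over WT in interferon-high cells, -0.17, became -0.070 after thinning and -0.12 without Isg15.

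Counts past 2-fold moved with the minimum level. With at least 20 CPM, interferon-high over other cells in Irf4-/- gave 79 higher and 1 lower, and Irf4-/- over WT gave 32 higher in interferon-high cells and 16 in the others. With no minimum the numbers were 956 higher and 390 lower in Irf4-/-, 939 and 459 in WT, 638 and 385 between genotypes in interferon-high cells and 659 and 661 in the others. Without mitochondrial and ribosomal protein genes in the totals there was 1 lower in Irf4-/- and 11 lower between genotypes in interferon-high cells. Between genotypes in interferon-high cells, Isg15 turned to 0.041 and Cxcl10 to 0.036 after thinning. With the cells in the top 5% of UMIs left out, Hist1h1b turned to -5.42, Hist1h2ap to -2.21, Mki67 to -1.77, Top2a to -1.22 and Pclaf to -0.41. The causes were not tested. Of 1692 alternative values for single genes, 1299 stayed within the counting-error interval of the main value and 386 lay outside it. A further 7 reversed, which was called only where the main interval left out 0. Where the main interval covers 0, a value among the 1299 or the 386 can have either sign.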
